A study of Mus musculus with 8 samples.

Results

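Needling at the hips, a site that is not an acupuncture point, was compared with no needling in mice that had received the neurotoxin MPTP. The comparison rests on 4 of the 8 arrays of the study: the 2 titled as MPTP with non-acupoint acupuncture and the 2 titled as MPTP alone. It covers every probe set with a gene symbol (23410 of 35557), of which 15791 were bright enough to test, for 13524 genes named by a single symbol.

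All mice were male C57BL/6, an inbred laboratory strain, 6 weeks old at the start, and thalamic tissue from both sides was profiled on Affymetrix whole-transcript arrays from 300 ng of total RNA. Hip-needled mice received MPTP intraperitoneally at 20 mg/kg every 24 hr for 4 weeks, and needles were inserted 3 mm into both hips and turned at 2 spins per sec for 15 sec in 14 sessions 48 hr apart. MPTP mice received the same injections and no needling. A further 2 mice needled at the acupoints GB34 and LR3 under the same injections, and 2 saline-injected control mice, entered the fit to estimate the spread. MPTP gives rise to a toxin that enters dopaminergic neurons and models parkinsonism in mice, so hip and MPTP mice carry the same lesioning treatment and their comparison asks what needling at a non-acupoint changed. No sham handling of the MPTP mice is described in the labels.

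The thalamus borders the third and lateral ventricles. Each ventricle holds choroid plexus, a folded epithelium that secretes cerebrospinal fluid by moving ions and water through channels and transporters, seals its cells with claudins, and releases carrier proteins such as transthyretin. The ventricle wall beside it is lined by ependymal cells with motile cilia, and the habenula and hypothalamus adjoin the thalamus above and below. Levels below are the deposited log2 values, so a difference of 1 is a doubling, and a level under 5.63 lies among the dimmest 40% of probe sets.

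Thalamic neuron genes were bright on all 4 arrays. Prkcd, a kinase gene of thalamic relay neurons, stood at 11.67 and 11.74 in hip mice 1 and 2 and at 11.47 and 11.88 in MPTP mice 1 and 2. MPTP mouse 1 and hip mouse 1 deviated from their group means in the same way (r = 0.82 over the tested probe sets), and their arrays correlated at 0.982, against 0.936 between the 2 hip mice and 0.908 between the 2 MPTP mice. With 2 mice per group the mice numbered 2 mirror these deviations, so this r does not say which arrays stand apart. MPTP mouse 1 and hip mouse 1 correlated at 0.905 to 0.936 with the remaining arrays, which correlated at 0.981 or more with each other. Each result is therefore also given as a same-number difference, hip mouse 1 minus MPTP mouse 1 and hip mouse 2 minus MPTP mouse 2. These 2 differences share no array. The titles do not say what a number stands for, and the p-values measure only the spread between these mice.

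The 7 genes that passed the adjusted test after hip needling all fell, and all are expressed by choroid plexus epithelium. By limma, 7 of 15791 probe sets passed an adjusted p under 0.05 and were lower (0.0443%), and 0% were higher. The 7 genes, which all stand on the choroid plexus lists used here, were Kcnj13 (chr1:87384577-87394729, GRCm38.p6), Car12 (chr9:66712296-66766845), Folr1 (chr7:101858331-101870788), Sostdc1 (chr12:36314169-36318452), Lbp (chr2:158306493-158332852), Igf2 (chr7:142650768-142666816) and Cldn1 (chr16:26356645-26371839). The choroid lists were drawn up with results of these data known, so their agreement with the calls is no independent evidence. At an unadjusted p under 0.05 there were 246 probe sets (1.56%), of which 194 were lower and 52 higher by at least 1.2-fold. In bulk tissue, fewer cells of a type and less RNA per cell cannot be told apart, and the amount of choroid plexus in each tissue piece is not given in the sources used here.

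Among channels and pH regulators, Kcnj13, which encodes the inward rectifier Kir7.1 of the apical membrane, changed most of the 7. Its level was 4.91 and 5.30 in hip mice 1 and 2, against 11.07 and 10.13 in MPTP mice 1 and 2. The hip mice lay far under the MPTP mice and among the dimmest probe sets, where differences are compressed, and the log2 change was -5.49 ± 0.35 (SE; limma adjusted p = 0.0197). Car12, a membrane carbonic anhydrase that makes bicarbonate, stood at 5.85 and 6.09 in hip mice, against 9.17 and 8.64 in MPTP mice. The groups did not overlap, and Car12 fell by 2.93 on the log2 scale (± 0.26, SE; limma adjusted p = 0.0411).

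Among receptors, Folr1, the folate receptor that carries folate into the cerebrospinal fluid, was nearly equal in the hip mice at 5.91 and 5.92, against 8.29 and 8.58 in MPTP mice. The groups did not overlap (log2 change -2.52 ± 0.18, SE; limma adjusted p = 0.0197). Among junction genes, Cldn1, a claudin of tight junctions, stood at 5.61 and 5.53 in hip mice, against 7.48 and 7.33 in MPTP mice. Both hip levels lay just under 5.63, and the change was -1.83 ± 0.13 (SE; limma adjusted p = 0.0197).

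The secreted proteins gave 3 of the 7. Sostdc1, an antagonist of BMP and Wnt signalling, stood at 5.69 and 5.66 in hip mice, against 8.38 and 8.76 in MPTP mice (log2 change -2.90 ± 0.25, SE; limma adjusted p = 0.0394). Lbp, which binds bacterial lipopolysaccharide, stood at 6.16 and 6.11 in hip mice, against 8.86 and 9.08 in MPTP mice (-2.83 ± 0.21, SE; limma adjusted p = 0.0234). Igf2, a growth factor gene that choroid plexus and meninges both express, stood at 7.44 and 7.17 in hip mice, against 9.10 and 8.90 in MPTP mice (-1.69 ± 0.15, SE; limma adjusted p = 0.0420). In all 3 the hip mice were close to each other and clear of the MPTP mice.

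The calls were not stable to which arrays entered the fit. Fitted on the 4 arrays alone, 0 probe sets passed. Leaving out a mouse left 0 passing for control mouse 1, control mouse 2, MPTP mouse 1 or hip mouse 1, left Kcnj13 alone for MPTP mouse 2, left Ttr alone for hip mouse 2 (adjusted p = 0.0171, limma), and left 5 for either acupoint mouse.

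**Figure D1:**
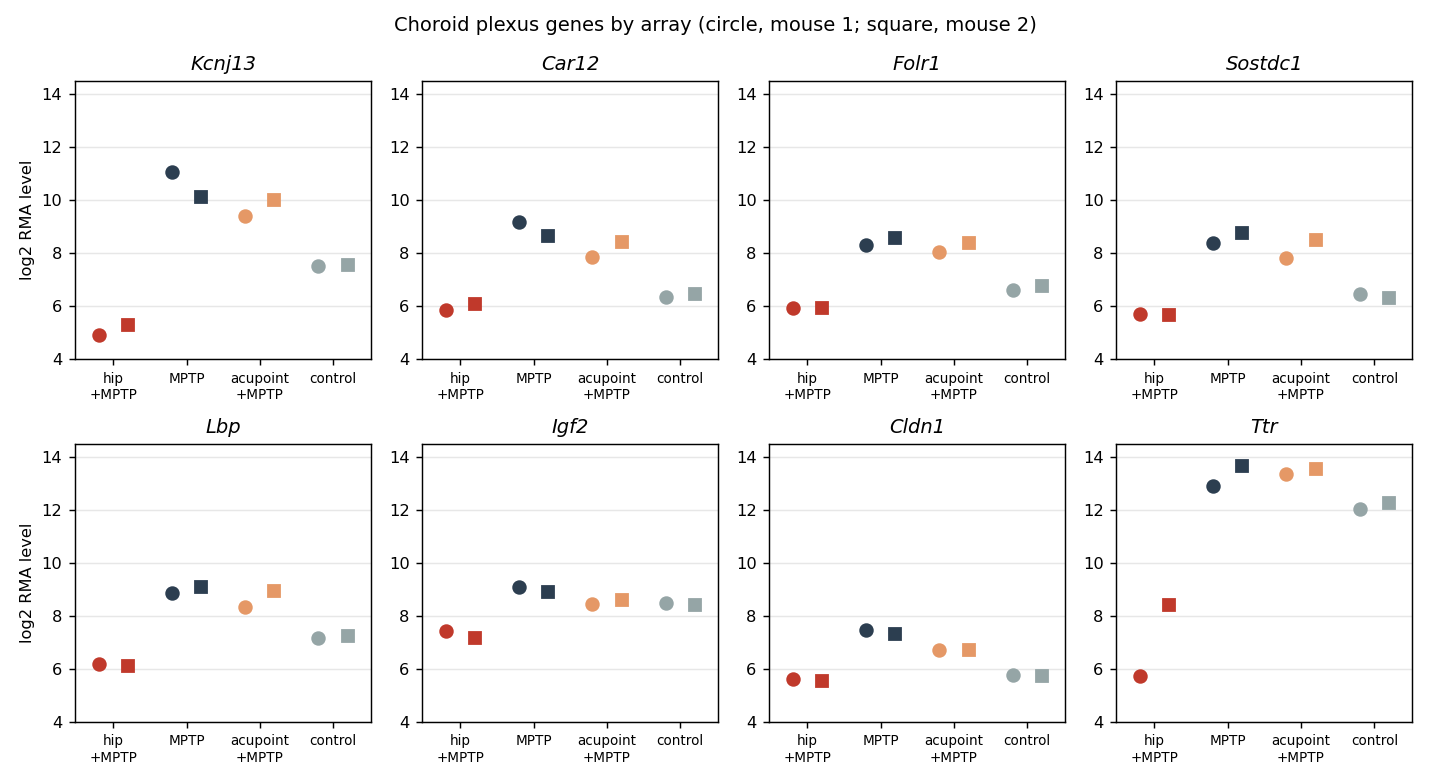
Log2 RMA level (y axis) of the 7 genes past the adjusted threshold and of Ttr, one panel per gene, in the 4 groups (x axis); each point is an array, a circle for mouse 1 and a square for mouse 2. In every panel both hip points lie under both MPTP points, and in Ttr the 2 hip mice lie apart at 5.72 and 8.39.

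Ttr, the transthyretin gene, did not pass the test. Its level was 5.72 and 8.39 in hip mice, against 12.91 and 13.65 in MPTP mice. The hip mice differed from each other by more than 2 log2 units, and the change of -6.23 ± 0.78 (SE) had a limma adjusted p of 0.138. Kl, which encodes the membrane protein klotho, stood at 5.73 and 4.82 in hip mice, against 8.85 and 8.53 in MPTP mice (limma adjusted p = 0.107). Clic6, a chloride intracellular channel family gene, stood at 6.00 and 5.75 in hip mice, against 9.12 and 8.95 in MPTP mice (limma adjusted p = 0.0609). Otx2, the homeodomain factor that specifies and maintains choroid plexus, stood at 6.61 and 6.91 in hip mice, against 8.05 and 8.10 in MPTP mice (limma adjusted p = 0.410). In these 4 genes the groups did not overlap and the test was not passed.

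The choroid lists held 59 genes, of which 54 matched a probe set and 49 were tested. Of the 49, 7 passed the test, all lower (0.0443% of all tested probe sets). By the same limma fit 39 had an unadjusted p under 0.05 (1.56% of all tested probe sets). In 10 of the 49 both hip levels lay under 5.63, so these members passed the brightness filter through their levels on other arrays. The median log2 change was -1.20, with -1.14 between the mice numbered 1 and -1.28 between those numbered 2, where over all tested genes these medians were 0.00, -0.02 and 0.04. Both same-number differences were negative in 46 of the 49 genes, against 19.8% of all tested genes. In 41 of the 49 both hip mice lay below both MPTP mice, a pattern that 6.74% of all tested probe sets showed, while 5.67% showed the opposite order.

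Members that the brightness filter left out did not depart from this. All 5 of them had negative values in both differences, among them Cldn2, the claudin of leaky epithelia, at 4.51 and 4.19 in hip mice, against 6.38 and 6.28 in MPTP mice. Over all 54 matched genes, 51 were lower in both differences.

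All 4 functional groups had negative medians in both differences. The 9 secreted proteins had medians of -2.69 for the mice numbered 1 and -2.32 for those numbered 2, the 8 receptors and regulators -1.42 and -1.27, the 21 channels and transporters -1.14 and -1.11, and the 11 junction and matrix genes -0.72 and -0.86. Aqp1, the water channel of the apical membrane, stood at 5.41 and 5.04 in hip mice, against 6.80 and 7.42 in MPTP mice (limma adjusted p = 0.154). Among the members near zero were Vegfa, Atp1b2 and the vitamin C transporter gene Slc23a2 (differences -0.05 and -0.04). Other brain cells also express these genes, and whether that bears on their values was not tested. Vegfa, the vascular growth factor, stood at 8.17 and 8.61 in hip mice, against 8.10 and 8.64 in MPTP mice. Atp1b2, a sodium pump subunit of astrocytes, stood at 11.88 and 11.47 in hip mice, against 11.67 and 11.60 in MPTP mice.

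Set beside the other groups, the choroid genes of hip mice were lowest. The mean level over the 49 genes was 6.62 and 6.67 in hip mice 1 and 2, against 8.13 and 8.21 in MPTP mice, 7.78 and 8.11 in acupoint mice and 7.20 and 7.21 in controls. Both hip mice lay below both controls in 35 of the 49 genes, an order that 22.3% of all tested probe sets showed, and both MPTP mice lay above both controls in 37, against 18.2%. The list was drawn up with these results known.

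The same-number differences give a count that does not lean on the pooled spread. Both were at least 1.5-fold lower in 82 tested probe sets (0.519%), and both were at least 1.5-fold higher in 1 (0.00633%), Mir380. At 2-fold the counts were 35 lower and 0 higher. In 17 of the 82 both hip levels lay under the brightness limit of 5.63. Of the 82, 35 stand on a choroid list, 1 on the ependymal list (Dynlrb2), 1 on the meningeal list (Islr) and 1 on the habenular list (Chrnb3), and 44 stand on none. Lists were matched only to probe sets with a single symbol. The probe set assigned to both Mfrp and C1qtnf5 is therefore counted as on none, although Mfrp is on a choroid list. In 72 of the 82 both acupoint mice lay above both hip mice (13.8% of all tested probe sets), in 55 both hip mice lay below both controls (22.3%), and in 74 both MPTP mice lay above both controls (18.2%). The 82 were chosen for low hip and high MPTP levels, which favours these orders, so nothing is read from the counts.

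Among those on no list, Oca2, which encodes a melanosomal membrane protein, stood at 5.19 and 4.88 in hip mice, against 7.56 and 6.84 in MPTP mice (limma adjusted p = 0.108). Its hip levels were among the dimmest. The genes named next were chosen after their values were seen. Slc2a12, a glucose transporter gene, had differences of -2.20 and -1.92, and Ecrg4, which encodes a secreted peptide precursor made by choroid plexus, had -1.52 and -2.47. Rdh5, a retinol dehydrogenase gene, had -1.05 and -1.33, and Sfrp1, a secreted Wnt antagonist gene, -0.94 and -1.38. Cilium genes were also present, with Drc7 at -1.84 and -1.80 and Cfap65 at -1.07 and -0.86. None of these passed the limma test.

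**Figure D2:**
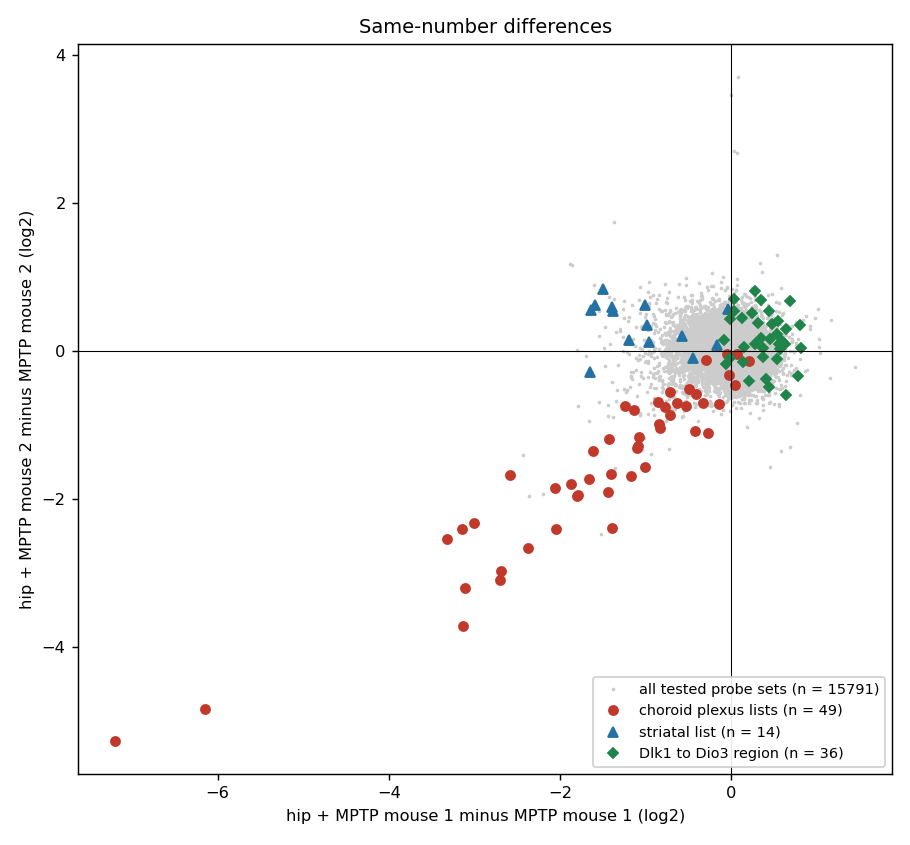
Hip minus MPTP log2 difference for the mice numbered 1 (x axis) and numbered 2 (y axis); grey points are all 15791 tested probe sets and coloured symbols mark choroid plexus list genes, striatal list genes and genes from Dlk1 to Dio3. Choroid genes run along the lower left diagonal, striatal genes lie mostly at the upper left, and most genes from Dlk1 to Dio3 lie at the upper right.

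Away from the choroid genes the 2 differences had little in common. Over all tested probe sets, choroid genes included, they had the same sign in 44.2%, with Pearson's r 0.10 and Spearman's rho -0.14. Over the 15742 probe sets that are not choroid list genes, Pearson's r was -0.07 and Spearman's rho -0.15, a description over probe sets that share 4 arrays. The spread and counts that follow are over all tested probe sets. The SD was 0.286 for the mice numbered 1 and 0.260 for those numbered 2. Differences across numbers had larger SDs, 0.592 (hip mouse 1 minus MPTP mouse 2) and 0.609 (hip mouse 2 minus MPTP mouse 1). The mice numbered 1 gave 520 probe sets at least 1.5-fold lower and 78 higher, and those numbered 2 gave 189 lower and 178 higher.

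The ependymal and meningeal lists had negative medians in both differences. Of 9 tested genes of motile cilia, 8 were lower in both differences (median -0.44), against 19.8% of all tested genes. In 3 of the 9 both hip mice lay below both MPTP mice, against 6.74% of all tested probe sets. Below the brightness limit were 13 of the 22 matched genes. Dynlrb2, a dynein light chain gene, stood at 5.49 and 5.12 in hip mice, against 6.93 and 5.83 in MPTP mice. Islr, a gene of meningeal fibroblasts, stood at 5.90 and 6.08 in hip mice, against 6.57 and 6.70 in MPTP mice. Of 14 meningeal genes, 7 were lower in both (19.8% of all tested genes) and 7 had opposite signs (median -0.18). Both hip mice lay below both MPTP mice in 5 of these 14 (6.74% of all tested probe sets). None of the ependymal genes passed the test. Of the meningeal list, none passed either. The medians of these lists were lower alongside the choroid genes, and their part in the result was not tested.

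Habenular genes were lower in both differences in 5 of 14 members, against 19.8% of all tested genes. Both hip mice lay below both MPTP mice in 5 of the 14, against 6.74% of all tested probe sets. The list medians had opposite signs, -0.57 for the mice numbered 1 and 0.10 for those numbered 2. Chrnb3, a nicotinic receptor subunit gene, stood at 5.99 and 5.55 in hip mice, against 6.63 and 6.30 in MPTP mice (limma adjusted p = 1.00). Gpr151, an orphan receptor gene of habenular neurons, stood at 4.93 and 5.62 in hip mice, against 6.56 and 5.95 in MPTP mice. Neither gene overlapped between groups or passed the test.

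Striatal genes separated the 2 MPTP mice rather than the groups. Penk, the proenkephalin gene, stood at 10.90 and 10.08 in hip mice, against 12.40 and 9.24 in MPTP mice. Both hip mice lay between the MPTP mice. Gda, a guanine deaminase gene of forebrain neurons, showed the same order at 7.51 and 7.61 in hip mice, against 8.89 and 5.85 in MPTP mice. The striatal list had a median of -1.11 for the mice numbered 1 and 0.45 for those numbered 2 over 14 genes, 12 of them with opposite signs. Over all probe sets, 36 had opposite signs with both differences at least 1.5-fold, and in 29 of them MPTP mouse 1 was the highest and MPTP mouse 2 the lowest of the 4.

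Dopaminergic genes ran the other way. Th, tyrosine hydroxylase of catecholamine synthesis, stood at 6.72 and 7.40 in hip mice, against 6.15 and 8.75 in MPTP mice. Slc6a3, the dopamine transporter, stood at 6.64 and 7.83 in hip mice, against 6.20 and 9.39 in MPTP mice. In both genes the hip mice lay between the MPTP mice, and the 13 tested genes of the list had medians of 0.36 for the mice numbered 1 and -0.48 for those numbered 2. Direction after hip needling cannot be read from these lists, and the contents of neighbouring regions in each tissue piece were not tested.

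Of 15 tested glucocorticoid response genes, 11 were lower in both differences, against 19.8% of all tested genes, and 4 had opposite signs. The medians were -0.29 for the mice numbered 1 and -0.26 for those numbered 2. In the limma fit 0 passed the adjusted test, and 2 had an unadjusted p under 0.05 (1.56% of all tested probe sets). In 3 of the 15 both hip mice lay below both MPTP mice, against 6.74% of all tested probe sets. Sgk1, a kinase gene induced by corticosteroids, stood at 9.16 and 9.25 in hip mice, against 9.73 and 10.14 in MPTP mice. Fkbp5, which encodes a co-chaperone of the glucocorticoid receptor, stood at 7.82 and 8.30 in hip mice, against 8.56 and 8.73 in MPTP mice. Neither overlapped between groups, and in neither was the test passed (limma adjusted p = 1.00 in both). Zbtb16 and Klf9, transcription factor genes that the receptor also induces, were lower in both differences and overlapped between groups.

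No gene that was higher in hip mice passed the test, and the smallest limma adjusted p of a higher probe set was 1.00. Dusp1 and Dusp4 encode phosphatases that switch off MAP kinases, and neither overlapped between groups. Dusp1 stood at 9.14 and 9.31 in hip mice, against 8.62 and 8.64 in MPTP mice, and Dusp4 at 6.91 and 7.09 in hip mice, against 6.31 and 6.57 in MPTP mice. Spry4, an inhibitor of receptor tyrosine kinase signalling, stood at 7.42 and 7.34 in hip mice, against 7.09 and 6.94 in MPTP mice. Of the 15 tested MAP kinase feedback genes, 7 were higher in both differences and 1 lower in both, against 23.9% and 19.8% of all tested genes. Both hip mice lay above both MPTP mice in 5 of the 15, against 5.67% of all tested probe sets.

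Hypothalamic neuron genes, peptide genes among them, were higher in both differences in 9 of 16, against 23.9% of all tested genes, and none passed. Oxt, the oxytocin gene, stood at 8.19 and 8.65 in hip mice, against 7.18 and 8.08 in MPTP mice. Trh, the thyrotropin-releasing hormone gene, stood at 8.36 and 7.82 in hip mice, against 7.39 and 7.37 in MPTP mice. Hcrt, the orexin gene, followed the mouse number more than the group, at 7.31 and 9.95 in hip mice, against 6.85 and 9.46 in MPTP mice. The list medians were 0.46 for the mice numbered 1 and 0.09 for those numbered 2.

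**Figure D3:**
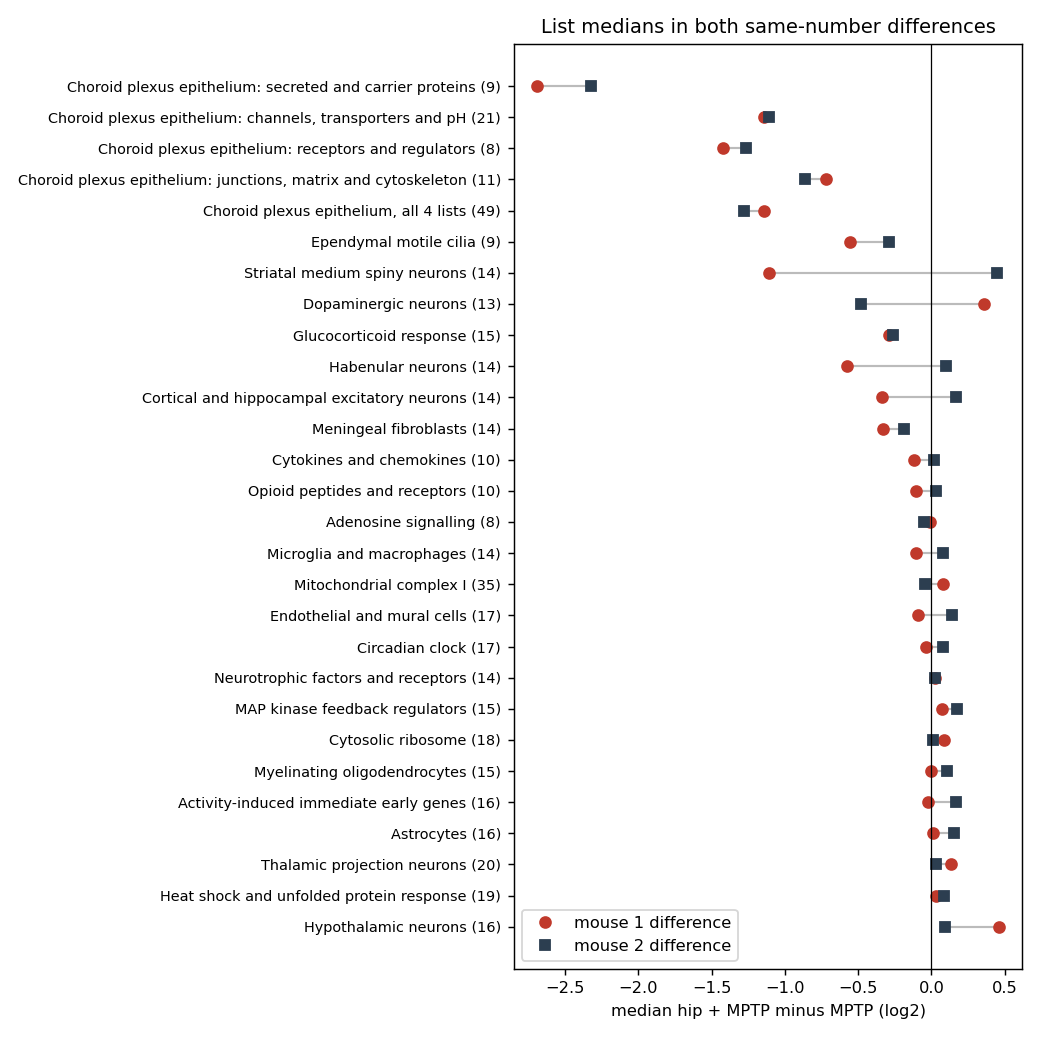
Median hip minus MPTP log2 difference over the tested genes of each list (number in brackets), a circle for the mice numbered 1 and a square for those numbered 2. Choroid lists lie at -0.72 or lower in both, striatal and dopaminergic lists lie on opposite sides of zero, and glial, vessel and immediate early lists lie near zero.

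Limma called 0 genes of the astrocyte, oligodendrocyte, microglia and vessel lists (0 at an unadjusted p under 0.05). Over all tested genes, 51.3% were higher, 23.9% were higher in both differences and 19.8% were lower in both. Of 16 astrocyte genes, 12 were higher, 7 of them in both differences, and 0 were lower in both (median 0.07). Aqp4, the water channel of astrocyte endfeet, stood at 9.91 and 10.05 in hip mice, against 9.85 and 9.88 in MPTP mice, without overlap. This order, both hip mice above both MPTP mice, held in 2 of the 16 and in 5.67% of all tested probe sets. Both differences were positive in 7 of 15 oligodendrocyte genes, 3 of 14 microglial genes and 4 of 17 vessel genes, and both were negative in 2, 3 and 4 of these. Gfap, the astrocyte filament gene, stood at 7.80 and 8.84 in hip mice, against 8.38 and 8.55 in MPTP mice. Aif1, a microglial gene, stood at 5.54 and 6.04 in hip mice, against 5.89 and 5.72 in MPTP mice, and Fos, an activity-induced gene, at 6.56 and 7.21 in hip mice, against 6.57 and 6.51 in MPTP mice. Gfap, Aif1 and Fos overlapped between groups. Of 20 thalamic neuron genes, 10 were higher in both differences and 1 lower in both (median 0.08), against 23.9% and 19.8% of all tested genes. Limma called 0 of them (0 at an unadjusted p under 0.05). Hip mouse 2 stood apart in 4 probe sets that the annotation assigns to several globin genes, at 9.26 to 10.3, against 6.85 to 7.56 in hip mouse 1 and 6.59 to 7.56 in MPTP mice. Without hip mouse 2 the choroid median was -1.28.

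The sequence before the start of the called genes was searched for TAATCC on both strands (GGATTA on the other), the core letters that OTX2-type homeodomains bind, since Otx2 is itself on the choroid list. The window ran from 250 bases before to 50 after the start in the RefSeq promoter table (GRCm38.p6). Of the 7 called genes, Kcnj13, Igf2, Car12 and Cldn1 had an entry there, with 7 promoters in all. The letters were present in 1 of the 7, an Igf2 start, 10 bases after it, and in 7.06% of all 32851 promoters. Over the choroid lists they were in 5 of 61 promoters (8.20%). The 2 promoters below are shown as those of the called gene with the largest change and of the gene with a match; the Kcnj13 window is chr1:87394680-87394979 and the Igf2 window chr7:142658755-142659054, both on the minus strand, and capitals mark the match.
Kcnj13: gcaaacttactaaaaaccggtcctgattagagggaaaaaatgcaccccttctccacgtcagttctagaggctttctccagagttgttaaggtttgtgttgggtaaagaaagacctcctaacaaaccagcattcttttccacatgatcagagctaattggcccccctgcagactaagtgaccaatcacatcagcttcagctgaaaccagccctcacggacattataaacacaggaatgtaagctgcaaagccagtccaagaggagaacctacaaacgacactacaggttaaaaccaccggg
Igf2: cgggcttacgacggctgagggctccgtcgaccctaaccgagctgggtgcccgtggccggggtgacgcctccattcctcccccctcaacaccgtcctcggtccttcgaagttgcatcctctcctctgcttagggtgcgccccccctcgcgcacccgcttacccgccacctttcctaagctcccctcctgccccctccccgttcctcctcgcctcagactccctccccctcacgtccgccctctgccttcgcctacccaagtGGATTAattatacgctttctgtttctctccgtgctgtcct

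Genes of the imprinted region from Dlk1 to Dio3 on chromosome 12 were mostly higher in hip mice in both same-number differences. The pattern was chosen after the values were seen and is given without a test. The region (chr12:109452485-110281097, GRCm38.p6) encodes a large cluster of microRNAs and small nucleolar RNAs that is transcribed from the maternal chromosome with the long noncoding RNAs Meg3 and Rian. Of 48 probe sets with a single symbol there, 34 were higher in both differences, 2 lower in both and 12 mixed. Both hip mice lay above both MPTP mice in 15 of the 48 and below both in 1, so most overlapped between groups. Among the 36 tested, 11 had both hip mice above both MPTP mice, an order that 5.67% of all tested probe sets showed. Of the 36 tested, 24 were higher in both, against 23.9% of all tested genes, and 0 passed the adjusted test. Of the 12 below the brightness limit, 10 were higher in both. Among them, Mir379 was at least 1.5-fold higher in both differences (0.89 and 0.93).

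MicroRNA genes made up 40 of the 48, and 28 of the 40 were higher in both differences, with medians of 0.39 for the mice numbered 1 and 0.20 for those numbered 2. MicroRNA genes elsewhere in the genome did not show this, with 48 of 256 higher in both and 57 lower in both. The microRNA, small nucleolar RNA, Meg3 and Rian probe sets of the region are transcribed from the same chromosome together and are not independent of each other. The labelling assay reads longer RNA, so these values stand for precursor or host RNA and mature microRNA was not measured.

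Mir380 stood at 7.07 and 6.95 in hip mice, against 6.38 and 6.28 in MPTP mice. It was the single tested probe set at least 1.5-fold higher in both differences. Mir377 stood at 7.09 and 6.65 in hip mice, against 6.54 and 6.24 in MPTP mice, and Mir127 at 6.60 and 6.44 in hip mice, against 5.80 and 6.09 in MPTP mice. These 3 did not overlap between groups. Mir300, at 7.81 and 6.81 in hip mice against 7.38 and 6.26 in MPTP mice, did overlap, as did Mir382 at 8.29 and 7.59 in hip mice against 7.83 and 7.23 in MPTP mice. Mature sequences of these 5 are given from RefSeq (GRCm38.p6) to show what the cluster encodes, with the seed (bases 2 to 8) in capitals.
miR-380-5p: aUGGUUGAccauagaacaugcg
miR-380-3p: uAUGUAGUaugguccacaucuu
miR-300-3p: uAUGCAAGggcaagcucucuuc
miR-377-3p: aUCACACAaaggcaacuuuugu
miR-382-5p: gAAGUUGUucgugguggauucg
miR-127-3p: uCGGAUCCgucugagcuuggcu

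No 2 of these 6 share a seed. Among the mature forms of the 28 genes, the seed AUGUAAC was shared by miR-379-3p and miR-411-3p. The protein-coding genes of the region are expressed mainly from the paternal chromosome. Dlk1, a Notch-family ligand gene, stood at 8.57 and 8.06 in hip mice, against 7.79 and 8.40 in MPTP mice, and Rtl1, a retrotransposon-derived gene, had differences of 0.64 and -0.59. Dio3, which encodes a deiodinase that inactivates thyroid hormone, was below the brightness limit at 5.10 and 5.15 in hip mice, against 4.60 and 5.14 in MPTP mice. Meg3 was at 12.09 and 12.16 in hip mice, against 11.72 and 12.12 in MPTP mice. The summed picture of the 48 probe sets, as a mean level, was 6.75 and 6.61 in hip mice, against 6.38 and 6.40 in MPTP mice. It was 6.45 and 6.49 in acupoint mice and 6.57 and 6.55 in controls. The hip, acupoint and control means thus all lay above the MPTP means, so this order was not particular to hip mice.

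**Figure D4:**
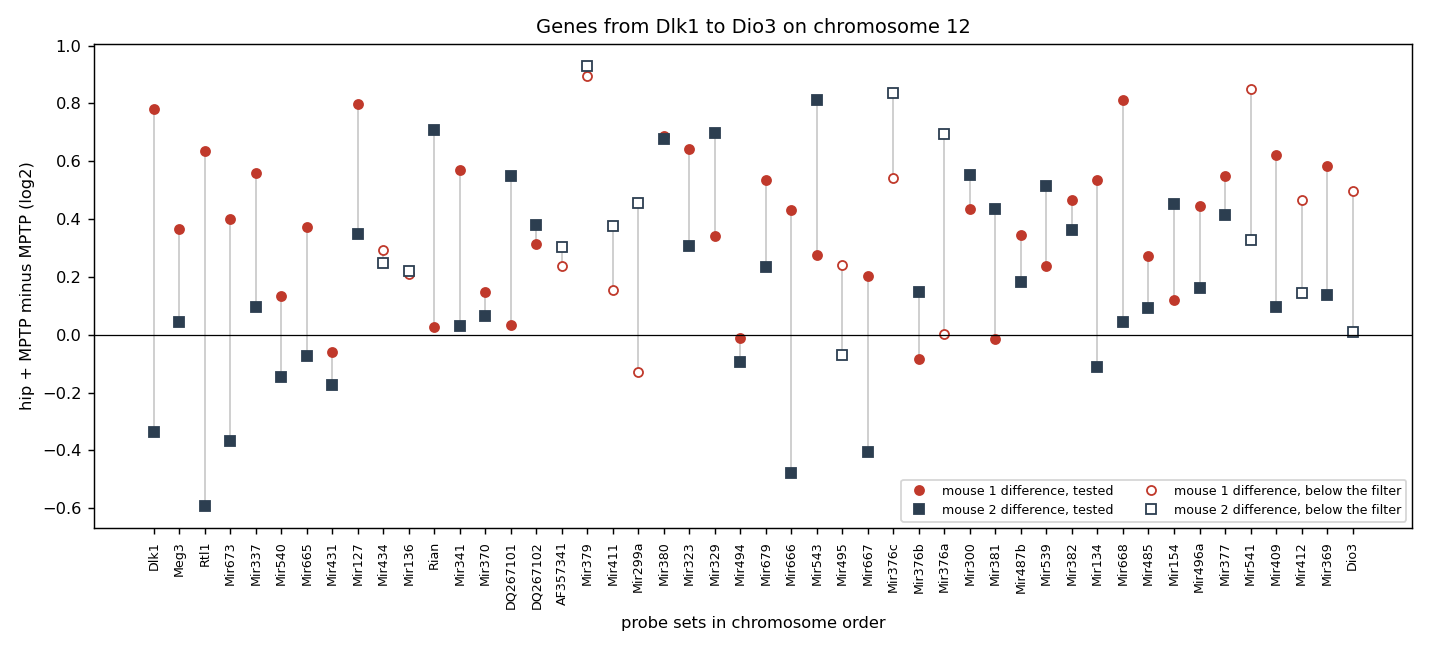
Hip minus MPTP log2 difference (y axis) for the 48 probe sets from Dlk1 to Dio3 in chromosome order (x axis), a circle for the mice numbered 1 and a square for those numbered 2; open symbols are probe sets below the brightness limit. Most pairs of symbols lie above zero, while Mir431 and Mir494 lie below it in both.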

How the data were processed

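Thalamic RNA of 8 mice, 2 per group, was measured on 1-colour Affymetrix arrays. The deposited values are log2 levels made by the authors with Expression Console and RMA, per the submitters' processing notes. RMA subtracts background, quantile-normalizes the arrays and summarizes probes. No tool version is given in the sources used here. RMA compresses dim differences, and total RNA per cell is not seen.

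Gene symbols came from the platform annotation: 21789 probe sets had 1 symbol, 1621 several (tested, not named) and 12147 none. The dimmest 40% of probe sets by mean over 8 arrays were left out. The limma 3.58.1 (R 4.3.3) fit took a mean per group on all 8 arrays (4 residual and 2.53 prior degrees of freedom), two-sided, with Benjamini-Hochberg adjustment over 15791 probe sets. Lists use 1 probe set per gene, that of highest mean. The precision is limited by 2 arrays a group. The procedure was also run on simulated data with independent noise on each array. That setting leaves out the shared deviation of MPTP mouse 1 and hip mouse 1.

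Named genes are all past the adjusted threshold, those with the largest smaller same-number difference in each direction, up to 4 per list, those of opposite signs, and a short set of cell markers; the region on chromosome 12 and some genes were added after their values were seen. The members and lists were chosen with earlier results of these data known. Alternatives were cyclic loess, other brightness filters, an intensity trend with a robust fit, array weights, the 4 arrays alone, a replicate block, a term for the 2 arrays that deviated together, 1 probe set for each gene, and dropping every mouse in turn.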

Additional observations from a re-analysis of the deposited data

How the results depend on the processing

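The choroid plexus median ranged from -1.31 to -1.16 where an alternative could move it. It was -1.19 with cyclic loess and -1.19 with the dimmest 60% left out. It was -1.31 without MPTP mouse 1, -1.16 without MPTP mouse 2, -1.205 without hip mouse 1 and -1.28 without hip mouse 2. The other alternatives leave the hip minus MPTP difference of each list gene unchanged. The value of -1.205 under them therefore says nothing of stability. The 7 lower calls were 0 with array weights and 0 on the 4 arrays alone, 42 with a term for the 2 arrays that deviated together, and 0 to 5 when a mouse was left out; 0 probe sets were higher under any of them. The unadjusted counts of 194 lower and 52 higher were 390 and 96 with no brightness filter, 73 and 29 with the dimmest 60% left out, 62 and 0 with array weights, 79 and 5 on the 4 arrays, 566 and 348 with the term, and 135 to 992 lower and 16 to 722 higher when a mouse was left out. Probe sets at least 1.5-fold lower in both differences were 127 with no filter and 42 with the dimmest 60% left out, and those higher were 5 and 0, and 2 with cyclic loess. Fewer probe sets or arrays enter some of these fits; beyond that the cause was not tested.

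The mouse numbers are not said to pair the mice. With a replicate block on the 4 arrays, 46 probe sets passed, all lower, with 406 lower and 170 higher at an unadjusted p; with the replicate block on 8 arrays 5 passed. Deviations of the mice numbered 1 correlated at 0.82 between the MPTP and hip groups and at -0.28 to 0.19 between other groups. Of the 7 called genes, 6 or 7 stayed past the threshold with cyclic loess, either filter, the trend or 1 probe set per gene. Levels near the background limit what can be said of the size of the largest changes.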
